A study of Zea mays with 16 samples.

Results

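The genes described here are the 9 maize genes of the allele table whose *Mu* insertion is annotated to the 5′ UTR, out of 17 genes with any insertion (4 in the promoter, 3 in an intron and 1 in the 3′ UTR). They were chosen by that annotation alone, and each gene was measured in hybrid seedlings that carried its insertion (carriers) and in seedlings that did not (non-carriers). All 8 seedlings were F1 hybrids of the inbred lines B73 and Mo17, sampled as shoots at 6 days of age. *Mutator* was active only on the B73 side of the cross, which puts the insertions on B73 chromosomes. A non-carrier of one insertion can carry others. Carriers were named from amplicons of *Mu*-flanking DNA, and transcripts were read as RT-PCR amplicons of the same shoots. No seedling was free of all 9 insertions, so the reference differs from gene to gene. Symbols are not given, since 0 of the 9 identifiers were in the gene table used here.

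*Mu* elements are maize DNA transposons that move by excision and reinsertion, favour the open chromatin at the 5′ ends of genes, and duplicate a short stretch of host DNA at each new site. The 5′ UTR is the transcribed stretch ahead of the start codon, so an element there interrupts the mRNA without changing the protein sequence. In a hybrid, the untouched Mo17 copy in the same nuclei serves as an internal standard. A low share of B73 transcript in a whole shoot cannot tell fewer cells with that transcript from less of it per cell.

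The alleles were told apart by tags of 13 bases that differ at 1 base, and these sequences are shown because every share below rests on them. The B73 tag is given first, 5′ to 3′, with the differing base in capitals. In the substitutions that follow the B73 base comes first and position 1 is the first base printed.
Zm00001d020901 B73: ccaagaTgcatgt
Zm00001d020901 Mo17: ccaagaCgcatgt
Zm00001d039733 B73: ggtgtaGgtgacg
Zm00001d039733 Mo17: ggtgtaAgtgacg
Zm00001d044446 B73: ggacggTgaggtc
Zm00001d044446 Mo17: ggacggCgaggtc
Zm00001d017424 B73: attgaTgccgttg
Zm00001d017424 Mo17: attgaCgccgttg
Zm00001d005587 B73: gcccccAtatttc
Zm00001d005587 Mo17: gcccccCtatttc
Zm00001d023962 B73: gaccctGgagttg
Zm00001d023962 Mo17: gaccctTgagttg
Zm00001d008642 B73: tggCgacgctgat
Zm00001d008642 Mo17: tggTgacgctgat
Zm00001d018461 B73: ctcggaAgcggga
Zm00001d018461 Mo17: ctcggaGgcggga
Zm00001d028784 B73: aagtcgGccctca
Zm00001d028784 Mo17: aagtcgTccctca
Of the 9 tag pairs, 7 differ at position 7. The pair of Zm00001d017424 differs by T6C and that of Zm00001d008642 by C4T. The difference is a transition in 6 genes and a transversion in 3 (A7C in Zm00001d005587, and G7T in Zm00001d023962 and Zm00001d028784).

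For 4 of the 9 genes a candidate site could be picked out, and its target site duplication, the short stretch of host DNA copied at insertion, is printed. The deposited list of 197 duplications names neither gene nor seedling. A duplication was taken as the candidate only where the stretch between the tRNA genes that flank the gene in the order of identifiers held exactly 1, and whether it lies in the 5′ UTR of the gene was not tested. Coordinates are those of the B73 RefGen_v4 assembly, the sequence is written as deposited, and its strand is not stated.
Zm00001d039733, chr3:13212753-13212761: GAGCCTGTG
Zm00001d017424, chr5:195713938-195713946: TCCCTCCAC
Zm00001d005587, chr2:179826432-179826440: CTCTCTACC
Zm00001d018461, chr5:221215280-221215288: ACAGACGAG
Each is 9 bases long. For the other 5 genes the stretch held between 2 and 6 duplications, and none was taken.

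The 9 genes gave 61 measurements, 29 in carriers and 32 in non-carriers, with 7 to 1663 tag reads each (median 118), and 5 of them had fewer than 20 reads. Over all 17 genes a seedling had 946 to 6722 tag reads. Because amplicon reads can be copies of one molecule, the floors, the read intervals and the Fisher tests below cover counting error only. Zm00001d005587 and Zm00001d028784 were each measured in only 3 seedlings, of which a single one carried the insertion. Their values compare libraries and have no replicate check among carriers.

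The 5′ UTR insertions ranged from no detectable B73 transcript in carriers to no detectable lowering. The effect was measured as a knockdown index, in which the pooled Mo17:B73 ratio of carriers is divided by that of non-carriers, so that 1 means no difference. At an index above 2 with an adjusted p under 0.05 (Fisher's exact test on reads, two-sided, Benjamini-Hochberg over all 17 genes), 7 of the 9 insertions were called reduced, where 47.1% of all genes in the table were. In the quasi-binomial model of all genes, which adds the spread between seedlings, 5 of the 9 were called. That spread is a single value shared by all 17 genes (dispersion 2.55), so the model's intervals do not follow the spread of each gene. The median index was 3.98 over the 9 genes, 1.88 over all 17, and 1.01 over the 8 genes with insertions elsewhere, of which 1 was called reduced. In 3 genes the index was above 10, in 4 it lay between 2.10 and 4.36, and in 2 it was not called. No gene of the 17 was called raised at an index under 0.5.

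**Figure D1:**
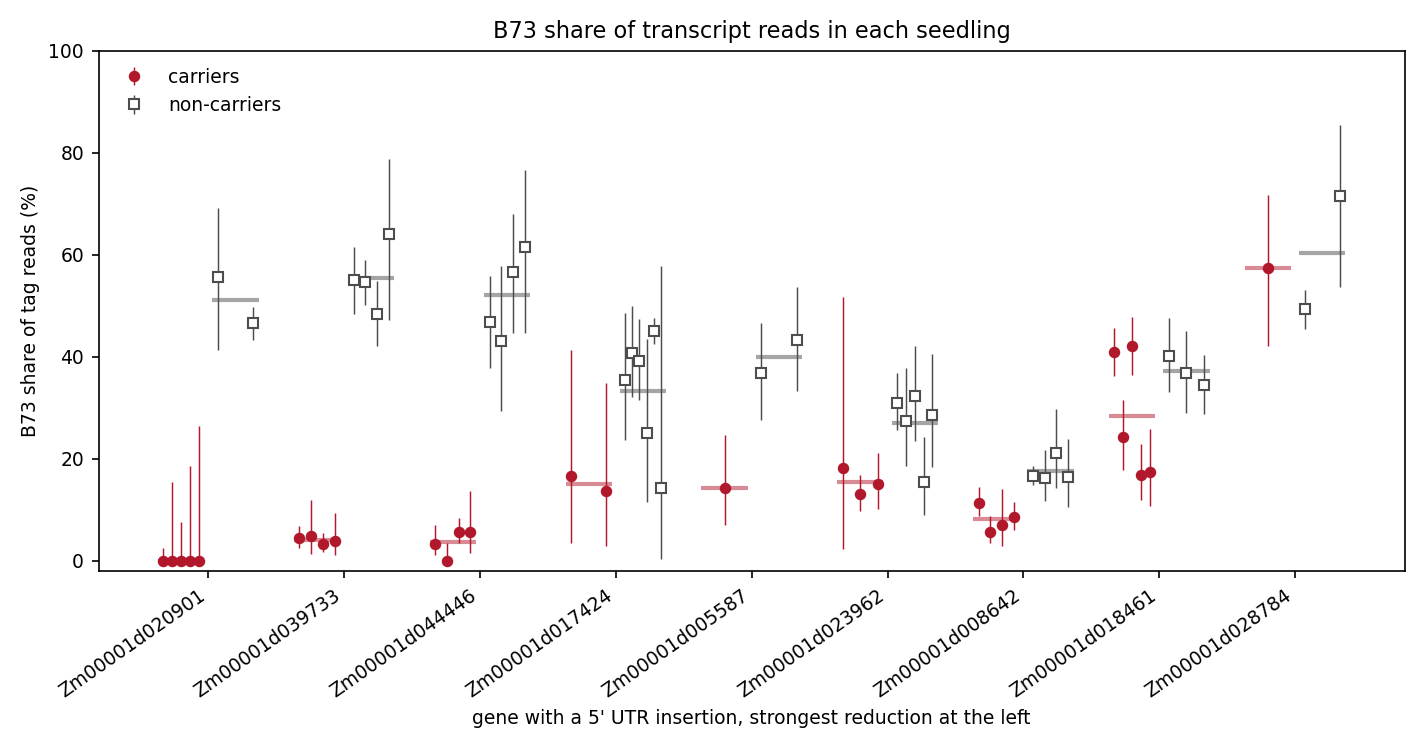
B73 share of tag reads (%, vertical axis) in every seedling for the 9 genes, ordered from the strongest reduction at the left. Filled circles are carriers and open squares non-carriers, thin bars are Clopper-Pearson 95% intervals of the reads and thick lines are means over seedlings. Every carrier lies below every non-carrier in Zm00001d020901, Zm00001d039733, Zm00001d044446 and Zm00001d008642, while the 5 carriers of Zm00001d018461 run from 16.9% to 42.1%.

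In Zm00001d020901 no B73 read was seen in any carrier. The counts were 0 of 149 reads in seedling 2, 0 of 22 in seedling 3, 0 of 46 in seedling 4, 0 of 18 in seedling 5 and 0 of 12 in seedling 6. The non-carriers had 30 of 54 reads (55.6%) in seedling 1 and 431 of 926 (46.5%) in seedling 7, so both alleles were read about equally where the insertion was absent. Over the 247 carrier reads a count of 0 allows a share of up to 1.21% (3 reads), whereas the 12 reads of seedling 6 alone allow 25.0%. The Clopper-Pearson 95% limit of that share is 1.48%. The index has no upper limit and its exact 95% interval starts at 58.5. With 3 B73 reads put in place of 0 the index was 72.2, and 28.1 without seedling 2, which gave most of the carrier reads. The interval of the quasi-binomial model runs from 11.6 to 679 and depends on the 0.5 added to each count. Seedlings separated fully, and a two-sided exact permutation test of the mean shares gave p = 0.0476, the smallest that 5 against 2 allows. Seedling 8 was called a non-carrier but has no counts for this gene. Reads of the gene ran from 12 to 149 in the carriers and were 54 and 926 in the non-carriers, so the ranges overlapped. The part of depth in the result was not tested beyond the floors given.

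In Zm00001d039733 the B73 transcript was low but present in every carrier, at shares of 3.31% to 4.82%. The share was 4.38% in seedling 2 (17 of 388 reads), 4.82% in seedling 3 (4 of 83), 3.31% in seedling 4 (14 of 423) and 3.81% in seedling 5 (4 of 105). Without the insertion it was 55.0% in seedling 1, 54.6% in seedling 6, 48.4% in seedling 7 and 64.1% in seedling 8. The carriers differed from each other by less than read sampling gives on average (chi-square over degrees of freedom 0.274), and all lay far below the lowest non-carrier. Seedlings 3 and 5 rest on 4 B73 reads each. Their Clopper-Pearson 95% intervals, 1.33% to 11.9% and 1.05% to 9.47%, leave room for differences between carriers. Carriers had a mean share of 4.08% ± 0.659 and non-carriers one of 55.5% ± 6.47 (SD, n = 4 each), with p = 0.0286 by the exact permutation test, the smallest that 4 against 4 allows. The index was 28.4 (exact 95% interval 20.03 to 41.0, and 15.7 to 46.6 with the spread between seedlings added). The B73 to Mo17 ratio in carriers was 3.53% of that in non-carriers (exact 95% interval 2.44% to 4.99%). Carriers had 83 to 423 reads of the gene and non-carriers 39 to 513.

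Zm00001d044446 was reduced in the same 4 seedlings and to a similar mean level, but less evenly. Carriers had 6 of 182 reads (3.30%) in seedling 2, 0 of 104 in seedling 3, 21 of 376 (5.59%) in seedling 4 and 4 of 72 (5.56%) in seedling 5. Non-carriers had 46.8% in seedling 1, 43.1% in seedling 6, 56.6% in seedling 7 and 61.5% in seedling 8. Seedling 3 thus had no B73 read where the other carriers had 3.30% to 5.59%, and its own Clopper-Pearson 95% interval reaches 3.48%. The chi-square over degrees of freedom among carriers was 2.34, and the difference in evenness from Zm00001d039733 was not tested. The index was 23.3 (exact 95% interval 15.0 to 36.9, and 11.1 to 43.2 with the spread between seedlings added), and the ratio left in carriers was 4.29% of that in non-carriers. The mean share was 3.61% ± 2.63 in carriers against 52.0% ± 8.51 in non-carriers (SD, n = 4 each), with p = 0.0286 by the exact permutation test. Leaving out seedling 4 raised the index to 35.8. Reads of the Mo17 tag per 1000 tag reads of the seedling were 26.2 to 114 in carriers and 9.18 to 25.2 in non-carriers, without overlap, and what this has to do with the share was not tested.

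A further 4 insertions left 22.9% to 47.6% of the non-carrier ratio, and 3 of these were measured in more than 1 carrier. In Zm00001d008642 every carrier lay below every non-carrier although the B73 allele was the minor one in all seedlings. The share was 11.4% in seedling 1 (56 of 492 reads), 5.68% in seedling 4 (18 of 317), 7.07% in seedling 7 (7 of 99) and 8.52% in seedling 8 (38 of 446). Non-carriers had 16.7% in seedling 2, 16.2% in seedling 3, 21.2% in seedling 5 and 16.4% in seedling 6. The gap between the highest carrier and the lowest non-carrier was therefore small, and the means differed by 9.46 percentage points, with SDs of 2.44 points in carriers and 2.38 in non-carriers (n = 4 each, p = 0.0286 by the exact permutation test). The index was 2.10 (exact 95% interval 1.68 to 2.64), and it fell under the threshold, to 1.88, without seedling 4.

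In Zm00001d023962 the carriers had 2 of 11 reads (18.2%) in seedling 1, 49 of 375 (13.1%) in seedling 4 and 27 of 180 (15.0%) in seedling 5. The non-carriers had 31.0% in seedling 2, 27.5% in seedling 3, 32.4% in seedling 6, 15.5% in seedling 7 (15 of 97 reads) and 28.6% in seedling 8. The groups overlapped because seedling 7, without the insertion, was as low as the carriers while the other 4 non-carriers were at 27.5% or above. The mean share was 15.4% ± 2.58 (SD, n = 3) in carriers and 27.0% ± 6.72 (n = 5) in non-carriers. The index was 2.45 (1.81 to 3.33), and the exact permutation test gave p = 0.0714. With each seedling left out in turn that p ran from 0.0286, without seedling 7, to 0.143, without seedling 4, and it was under 0.05 also without seedling 1.

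Zm00001d017424 had few reads in its carriers, 3 of 18 (16.7%) in seedling 3 and 3 of 22 (13.6%) in seedling 5. The share in the 6 non-carriers ran from 14.3% through a median of 37.3% to 45.0%. The lowest of these, seedling 8, rests on 7 reads and lay between both carriers, and the others were at or above 25.0%. The index was 4.36, but its exact 95% interval reached from 1.80 to 12.8, and from 1.02 to 14.5 with the spread between seedlings added. Its pooled reference is mostly seedling 7, with 1505 of 1884 non-carrier reads at the highest share, 45.0%. The index was 3.40 without seedling 7, and 2.80 from the mean of seedling shares instead of pooled reads. The exact permutation test gave p = 0.107, and with single non-carriers left out from 0.0476, without the overlapping seedling 8, to 0.190. The call on reads was lost without seedling 5 (index 3.85, adjusted p = 0.0517 in Fisher's exact test) and in the quasi-binomial model (adjusted p = 0.0995, and 0.107 with seedling as a replicate block).

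In Zm00001d005587, with its single carrier, seedling 8 had 10 of 70 reads (14.3%, Clopper-Pearson 95% interval 7.07% to 24.7%) against 36.8% in seedling 6 and 43.3% in seedling 7. The interval of the carrier lay below those of both non-carriers, 27.6% to 46.7% and 33.3% to 53.7%. The index was 3.98 (exact 95% interval 1.87 to 9.21, adjusted p = 0.000148 in Fisher's exact test), and the quasi-binomial model did not call it (adjusted p = 0.0570, and 0.0850 with the replicate block).

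Both insertions without a call looked unlike each other. In Zm00001d018461 the 5 carriers fell on both sides of the non-carriers. Seedlings 3, 6 and 8 had 24.2% (39 of 161 reads), 16.9% (34 of 201) and 17.4% (19 of 109), below the lowest non-carrier. Seedlings 2 and 4 had 40.9% (180 of 440) and 42.1% (130 of 309), above the highest. The non-carriers had 40.2% in seedling 1, 36.7% in seedling 5 and 34.4% in seedling 7, a range of 5.77 percentage points where the carriers spanned 25.2. The chi-square over degrees of freedom was 16.3 among carriers and 0.795 among non-carriers. On pooled reads the index came to 1.18 (exact 95% interval 0.961 to 1.46) and was not called (adjusted p = 0.148 in Fisher's exact test, p = 0.339 in the exact permutation test), so that it averages over carriers that did not behave alike. Against the pooled non-carriers, the index of single carriers was 1.82 in seedling 3 (exact 95% interval 1.21 to 2.78), 2.86 in seedling 6 (1.89 to 4.42) and 2.76 in seedling 8 (1.61 to 4.92). It was 0.841 in seedling 2 (0.649 to 1.09) and 0.802 in seedling 4 (0.600 to 1.07). The intervals of seedlings 2 and 4 include 1, so their reads do not show a raised B73 share. The carriers with the higher shares were also those with the most reads of the gene, and whether depth had a part in this was not tested.

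In Zm00001d028784 the only carrier, seedling 1, had 27 of 47 reads (57.4%, Clopper-Pearson 95% interval 42.2% to 71.7%). It lay between both non-carriers, seedling 2 with 330 of 669 (49.3%) and seedling 3 with 25 of 35 (71.4%). The index was 0.753 with an exact 95% interval of 0.393 to 1.42, so the reads allow a B73 ratio anywhere from 70.2% to 255% of that in non-carriers. The index was set by the deep library of seedling 2. Without it the index was 1.85, and the mean of the seedling shares was 2.93 percentage points lower in the carrier while the pooled share was 7.02 points higher.

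**Figure D2:**
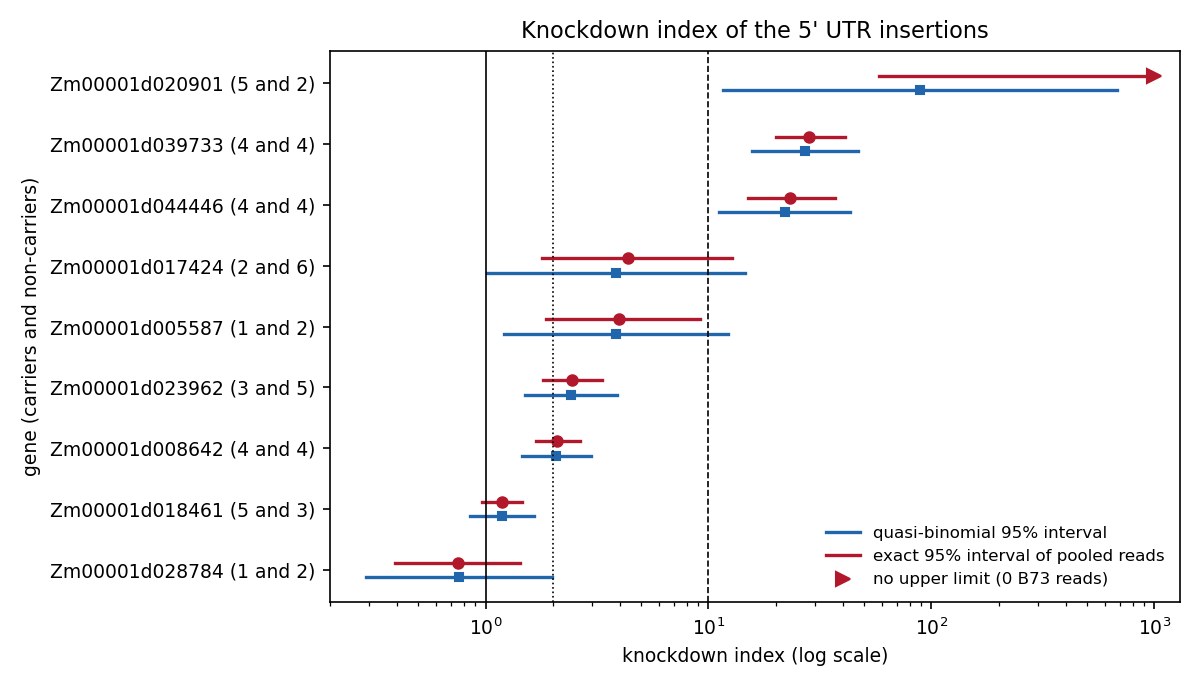
Knockdown index (horizontal axis, log scale) of the 9 genes, with the numbers of carriers and non-carriers in brackets. Red circles and bars are pooled reads with the exact 95% interval, blue squares and bars the quasi-binomial model with the spread between seedlings added, and vertical lines mark indices of 1, 2 and 10. The index falls from above 10 in 3 genes, through 2.10 to 4.36 in 4, to 1.18 and 0.753.

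Put on one scale, the B73 to Mo17 ratio in carriers as a percent of that in non-carriers formed a graded series. It was 0% in Zm00001d020901, where no B73 read was seen in carriers (exact 95% interval 0% to 1.71%). It was 3.53% in Zm00001d039733 (2.44% to 4.99%), 4.29% in Zm00001d044446 (2.71% to 6.67%) and 22.9% in Zm00001d017424 (7.84% to 55.7%). Next came 25.1% in Zm00001d005587 (10.9% to 53.3%), 40.9% in Zm00001d023962 (30.0% to 55.4%) and 47.6% in Zm00001d008642 (37.9% to 59.5%). The last were 84.4% in Zm00001d018461 (68.5% to 104%) and 133% in Zm00001d028784 (70.2% to 255%). The order within the series is loose. With the mean of seedling shares in place of pooled reads, Zm00001d017424 (index 2.80) came after Zm00001d005587 (4.01). In the same way Zm00001d023962 (2.03) came after Zm00001d008642 (2.41). The indices of single carriers did not overlap between Zm00001d044446 and Zm00001d017424, between Zm00001d005587 and Zm00001d023962 or between Zm00001d018461 and Zm00001d028784, and the last 2 of these steps each rest on a single carrier. Zm00001d020901 could not be set against Zm00001d039733 in this way, since its carriers have only lower bounds. The indices overlapped for Zm00001d039733 with Zm00001d044446, Zm00001d017424 with Zm00001d005587, Zm00001d023962 with Zm00001d008642 and Zm00001d008642 with Zm00001d018461. With the spread between seedlings added, the 95% intervals of every pair of neighbours overlapped.

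Over seedlings instead of reads, 7 of the 9 genes had 2 or more seedlings of each genotype. In 4 of them every carrier was below every non-carrier, and the same 4 had an unadjusted p under 0.05 by the exact permutation test, where 45.5% of the 11 genes that could be tested met each rule. Among the 4, Zm00001d039733 and Zm00001d044446 had the same carriers and the same non-carriers, so both rest on the same split of seedlings. After Benjamini-Hochberg adjustment over those 11 genes 0 were under 0.05 (lowest adjusted p = 0.0786 by the exact permutation test).

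The same seedling was a carrier for some genes and a reference for others, which allowed the comparison within a plant. Seedling 4 carried 6 of the insertions, seedlings 3 and 5 carried 5 each, seedling 2 carried 4, seedlings 1 and 8 carried 3 each, seedling 6 carried 2 and seedling 7 carried 1. These counts cover only the genes measured in a seedling, 7 or 8 of them in each, so they are lower bounds. Seedlings 2, 3, 4 and 5 carried all 3 insertions with an index above 10, and Zm00001d039733 and Zm00001d044446 had exactly these 4 carriers. In those seedlings the genes without an insertion had B73 shares of 16.7% to 49.3% in seedling 2 (4 genes) and 16.2% to 71.4% in seedling 3 (3 genes). The share was 39.2% in seedling 4 (1 gene) and 21.2% to 36.7% in seedling 5 (2 genes). The lower ends in seedlings 2, 3 and 5 are those of Zm00001d008642, whose B73 allele was the minor one in all seedlings. Seedling 6 separated the insertion of Zm00001d020901 from those of Zm00001d039733 and Zm00001d044446, since of these it carried the first only. It had 0 of 12 B73 reads in Zm00001d020901, while its shares in Zm00001d039733 and Zm00001d044446 were 54.6% and 43.1%. No seedling separated Zm00001d039733 from Zm00001d044446.

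**Figure D3:**
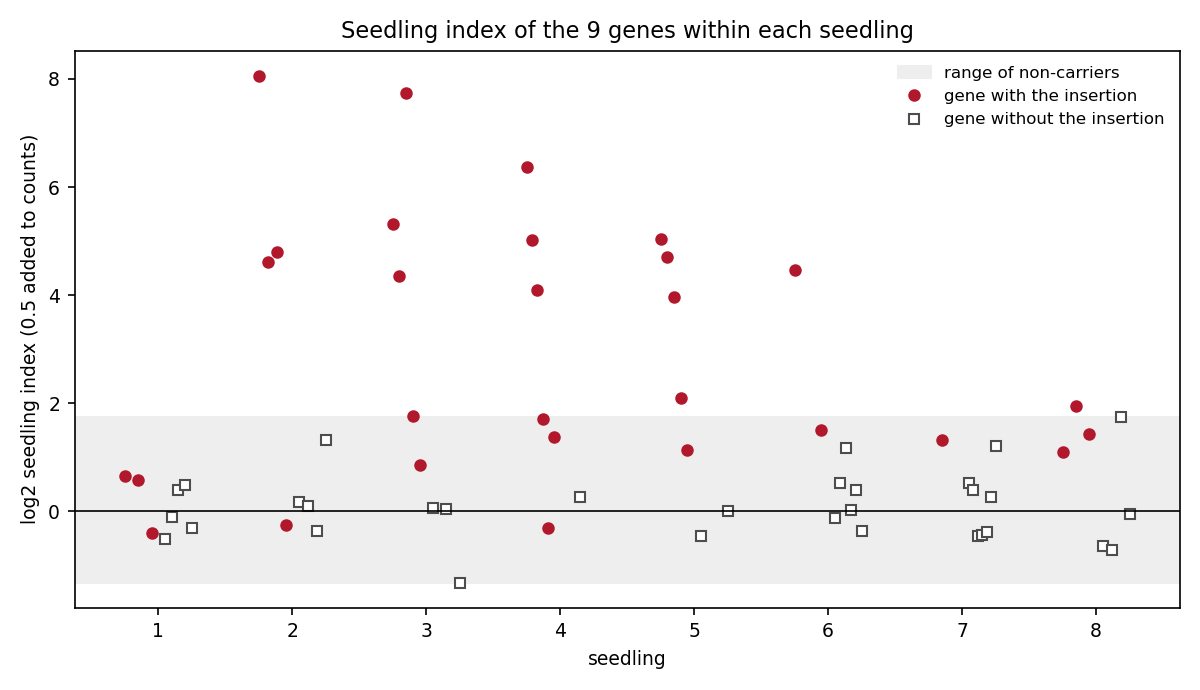
Log2 seedling index (vertical axis, 0.5 added to each count) of the 9 genes in each of the 8 seedlings (horizontal axis). Red circles are genes whose insertion the seedling carried, open squares genes without it, and the grey band is the range of non-carriers, from -1.32 to 1.74. The 6 circles with a B73 count of 0 are set by the 0.5 added, and 16 of the 29 circles lie above the band.

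To place each seedling on a common scale, its Mo17 to B73 ratio was divided by that of the pooled non-carriers of the gene (other non-carriers, for a non-carrier), with 0.5 added to each count. On the log2 scale this seedling index ran from -1.32 to 1.74 in the 32 non-carrier measurements (median 0.03) and from -0.40 to 8.05 in the 29 carrier measurements (median 1.94). This range pools the non-carriers of different genes, so it is only a coarse background for a single carrier. Its upper end is set by the 7 reads of Zm00001d017424 in seedling 8. In genes with 2 non-carriers each was divided by the other, so their values mirror each other. The lower end, -1.32, is such a value, in Zm00001d028784. All carriers of Zm00001d020901 (5), Zm00001d039733 (4), Zm00001d044446 (4), Zm00001d017424 (2) and Zm00001d005587 (1) lay above that range, though seedling 3 of Zm00001d017424 did so only narrowly, at 1.77. With nothing added to the counts, a setting chosen after seeing the data, the highest non-carrier index was 4.63 on the linear scale, in the same 7 reads, and 14 carriers lay above it, without seedling 3 of Zm00001d017424 and the carrier of Zm00001d005587. On the log2 scale no single carrier of Zm00001d008642, Zm00001d023962, Zm00001d018461 or Zm00001d028784 did. In Zm00001d008642 the groups separated although no single carrier left that pooled range. The non-carriers of this gene itself ran from -0.45 to 0.09, and its carriers from 0.65 to 1.72.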

How the data were processed

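The members and lists were chosen with earlier results of these data known. *Mu*-flanking DNA and RT-PCR products of 8 seedlings (16 libraries, linked by the seedling number in their labels) were sequenced by the authors on a MiSeq. Mapping was to B73 RefGen_v4, and insertions were called from target site duplications. Software, read filters and the read minimum for a call are not given in the sources used here. RT-PCR libraries are labelled as genomic DNA, whereas the methods describe RNA. The deposited values are whole-number counts of reads per gene, allele tag and seedling, without normalization. The authors deposited insertion calls as words and duplications as positions pooled over seedlings. Blank or NA cells were left out (0 columns belong to other samples).

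From the counts, the B73 share with Clopper-Pearson 95% intervals, the index with its exact conditional interval, Fisher's exact test and exact permutation tests over seedlings (absolute difference of mean shares) were computed with Python 3.11.15, numpy 2.4.6, pandas 2.3.3 and scipy 1.17.1. A quasi-binomial model of all 17 genes (statsmodels 0.14.6, 0.5 added to counts, dispersion 2.55) gave the wider intervals. Figures used matplotlib 3.10.9. All 9 genes were named, and others entered as counts. The calls were tested on simulated data at the real depths of the 17 genes. Of 2000 simulated insertions without effect, 0.450% were called under read sampling alone and 2.60% when spread between seedlings was added. Of 800 with a true index of 4, 100% were called in both cases. Those 800 were placed in genes with 628 to 1220 carrier reads. No effect was simulated in Zm00001d017424 or Zm00001d005587, with 40 and 70 carrier reads, so the power at such depths was not tested. With that spread added, the exact 95% intervals held the true index in 82.2% to 88.8% of simulated insertions. The spread added was milder than the dispersion of 2.55 in these data. The error rate and the coverage at the real spread were therefore not tested. Alternatives covered thresholds, tests, depth, reference, added counts and seedlings left out.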

Additional observations from a re-analysis of the deposited data

Results flagged for a closer look

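Among the seedlings without the insertion in Zm00001d008642, seedling 5 had a B73 share of 21.2% (25 of 118 reads), above the other 3 at 16.2% to 16.7%, a gap large for a group of 4. From its reads alone the share could lie between 14.2% and 29.7% (95% interval, Clopper-Pearson), which includes the other 3. In all 9 groups of 4 to 10 seedlings were examined and 1 was singled out, where chance gives about 1 in 20.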

How the results depend on the processing

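The number of 5′ UTR insertions called reduced, 7, was 3 with all read counts divided by 10. It was 5 with an index above 3, 5 in the quasi-binomial model without and 5 with seedling as a replicate block, 6 with counts divided by the model's spread (chosen after seeing the data), 6 to 7 with each seedling left out, and 7 under the other settings run. Zm00001d017424 and Zm00001d005587 lost their calls in both models (index 4.05 and 3.86 with the replicate block). The 4 genes with a permutation p under 0.05 were 0 after adjustment over the 11 genes, and 3 to 5 with each seedling left out. Zm00001d020901 lost that p whichever of its carriers was left out (p = 0.0667 by the exact permutation test). Groups of that size cannot reach a p under 0.05, and its difference stayed at -51.0 points. Zm00001d028784 changed direction with the mean of seedling shares (index 1.13), with pooled reads (7.02 points) and with seedlings left out (index 0.721 to 1.85, difference -14.0 to 8.12 points). Its pooled reference is mostly seedling 2, with 669 of 704 non-carrier reads at a B73 share of 49.3%, against 35 reads at 71.4% in seedling 3. Why these non-carriers differ was not tested. The mean of seedling shares gives no index for Zm00001d020901, whose carriers are at 0. Against equal expression of both alleles the index rose from 1.18 to 2.03 in Zm00001d018461, from 2.45 to 6.26 in Zm00001d023962 and from 2.10 to 10.4 in Zm00001d008642. It also rose in Zm00001d017424 (5.67) and Zm00001d005587 (6.00). It fell in Zm00001d039733 (24.6), Zm00001d044446 (22.7) and Zm00001d028784 (0.741). Depth limits Zm00001d017424, Zm00001d028784 and the floors of Zm00001d020901.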
